A study of Mus musculus with 36 samples.

Results

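The cluster of miR-183, miR-96 and miR-182 is a group of 3 microRNA genes that lie close together on mouse chromosome 6. Its 3 guide strands, listed as mmu-miR-183-5p, mmu-miR-96-5p and mmu-miR-182-5p and written here without the species prefix, were taken by name from the 1963 miRNAs listed in every library, and the opposite strands of the same 3 hairpins were read beside them. Small RNA was sequenced from the ventral and lateral prostate lobes of male mice of the strain labelled C56NL/6N, in order to find miRNAs that depend on Elac2. Elac2 encodes the ribonuclease that trims the 3′ trailer from precursor transfer RNAs. The 3 genotypes were wild type (WT, labelled ELAC2+/+), a homozygous deletion of Elac2 in the prostate (KO) and a homozygous exchange of alanine for threonine in ELAC2 in the whole body (A537T). The deletion was made with Cre under the probasin promoter, so that only cells in which this promoter is active lose the gene. The exchange was introduced with CRISPR. Each genotype was studied without and with TRAMP, a heterozygous transgene in which probasin drives the SV40 T antigens, at the ages of 10 and 30 weeks. There were thus 12 groups with 3 libraries each, named here as, for example, KO-TRAMP at 30 weeks.

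A miRNA is cut from a hairpin in a longer transcript, and 1 strand of the resulting duplex, the guide, is retained in an Argonaute protein while the other, the passenger, is mostly degraded. The guide pairs with messenger RNAs mainly through its seed near the 5′ end and lowers their translation and stability. The members of this cluster are made from a shared primary transcript, are abundant in sensory organs and in many epithelia, and are often raised in carcinomas, prostate carcinoma among them.

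The mature strands are shown because the seeds decide which messages a strand can pair with, and because the passenger strands behaved differently from the guides. Capitals mark the seed, bases 2 to 8 counted from the 5′ end. All sequences are those of RefSeq for GRCm38.p6, in which all 6 mature strands were found by name.
miR-183-5p: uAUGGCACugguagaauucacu
miR-96-5p: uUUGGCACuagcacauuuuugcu
miR-182-5p: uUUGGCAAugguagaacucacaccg
miR-183-3p: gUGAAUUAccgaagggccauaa
miR-96-3p: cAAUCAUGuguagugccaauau
miR-182-3p: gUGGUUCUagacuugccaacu

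The 3 guide seeds were near copies of each other. The seeds of miR-183-5p and miR-96-5p shared 6 of 7 bases and differed by A2U. The seeds of miR-96-5p and miR-182-5p shared 6 of 7 bases and differed by C8A. The outermost pair, miR-183-5p and miR-182-5p, shared 5 of 7 bases and carried both differences, A2U and C8A. Among 1738 mature mouse miRNAs, the seed of miR-96-5p was also found in miR-1271-5p and that of miR-96-3p in miR-3475-5p, whereas no other miRNA carried the seeds of the remaining 4 strands. The passenger seeds had no such resemblance to the guide seeds, as the lines above show.

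The hairpins lie on the minus strand of GRCm38 in the order Mir183, Mir96, Mir182 as they are transcribed. Mir183 occupies chr6:30169668-30169737, Mir96 chr6:30169446-30169551 and Mir182 chr6:30165918-30165992. The whole cluster spans 3820 bases. Mir183 and Mir96 are separated by 116 bases, and Mir96 and Mir182 by 3453 bases. The annotation places 0 genes over the hairpins, so the cluster is intergenic, between Nrf1, which ends 12459 bases from it, and Ube2h, 41551 bases away on the other side. The long non-coding RNA Rncr4 starts on the opposite strand 3155 bases beyond Mir183. In the hairpins below, capitals mark both mature strands, with the 5p strand first.
Mir183: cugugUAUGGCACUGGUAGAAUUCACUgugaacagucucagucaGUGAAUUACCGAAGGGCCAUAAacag
Mir96: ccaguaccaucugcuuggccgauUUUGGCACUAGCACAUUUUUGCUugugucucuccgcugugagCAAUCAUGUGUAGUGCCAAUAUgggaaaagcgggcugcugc
Mir182: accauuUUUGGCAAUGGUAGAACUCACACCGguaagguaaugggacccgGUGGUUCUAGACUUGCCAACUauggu

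Levels are given as CPM, the reads of a miRNA scaled to a total of 1000000 miRNA reads in its library. Library totals ran from 4544257 to 21870210 reads, except for library 35 (A537T at 10 weeks), which held 655455 reads. The guides were well covered at these depths, with a median per library of 75697 reads for miR-182-5p, 28064 for miR-183-5p and 12958 for miR-96-5p. The passengers were sparse, with medians of 53 reads for miR-182-3p, 43 for miR-183-3p and 20 for miR-96-3p. Library 35 held 0 reads of miR-96-3p, and a count of 0 there still allows up to 4.58 CPM. The group of each library rests on the names of the tables that hold it, and no value in these files checks it.

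The tissue held other cells beside the epithelium, and their share differed between the groups. The epithelial miR-200 family made up 3.49 to 6.45% of reads in the 9 libraries of 10 weeks without TRAMP and 5.31 to 9.60% in the remaining libraries. A list of 7 skeletal muscle miRNAs took 0.736 to 30.7% of reads in those 9 libraries, with the highest share in library 30 (WT), against 0.187 to 3.09% elsewhere. A list of 4 smooth muscle and fibroblast miRNAs took a median of 30.2% in those 9 libraries (range 7.08 to 39.9%) and of 11.2% (7.50 to 22.6%) in the TRAMP libraries of the same age. At 30 weeks it took 12.7 to 29.7% without TRAMP and 6.15 to 34.2% with TRAMP. Of further lists, 3 red cell miRNAs took 0.105 to 0.193% of reads at 10 weeks without TRAMP and 0.0137 to 0.0615% with it. A list of 3 white blood cell miRNAs took 0.0306 to 0.0746% with TRAMP at 30 weeks and at most 0.0279% elsewhere. A list of 2 basal and squamous miRNAs had medians of 0.401 and 0.414% without TRAMP and 0.279 and 0.236% with it, at 10 and 30 weeks. The part of these cells in the levels of the guides was not tested beyond the change of totals given with the results. In such bulk samples, fewer cells of a type and less RNA per cell cannot be told apart.

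All 3 guides were among the more abundant miRNAs of the prostate. miR-182-5p ranked between 19 and 36 of the 1963 miRNAs across the libraries, miR-183-5p between 30 and 58 and miR-96-5p between 53 and 75. Of the reads of the 3 guides together, miR-182-5p took 52.6 to 69.5%, miR-183-5p 19.8 to 37.6% and miR-96-5p 7.7 to 14.5%. The order miR-182-5p, miR-183-5p, miR-96-5p therefore held in each of the 36 libraries, although small RNA kits capture different sequences unequally and reads of different miRNAs are not numbers of molecules.

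**Figure D1:**
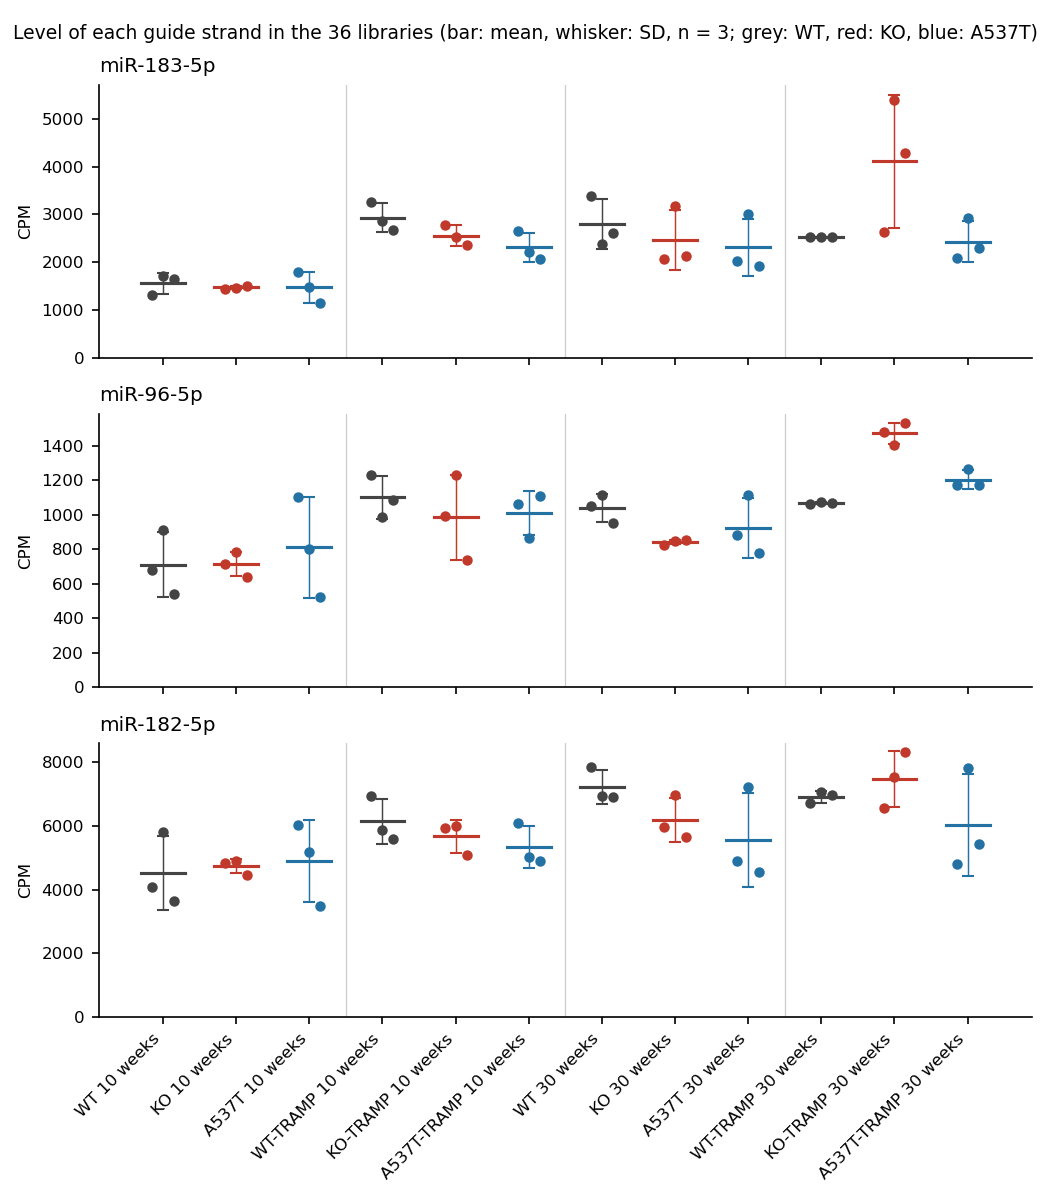
Level of miR-183-5p, miR-96-5p and miR-182-5p in CPM (vertical axes, each from 0) in the 12 groups, with 1 point per library, a bar at the group mean and a whisker of 1 SD (n = 3). The 9 libraries of 10 weeks without TRAMP are the lowest for miR-183-5p, at 1154 to 1804 CPM against 1914 or more elsewhere, and KO-TRAMP at 30 weeks is the highest for all 3 guides.

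Levels of miR-183-5p, the first hairpin of the transcript, split the groups most clearly. The 3 lowest groups were those of 10 weeks without TRAMP, with 1476 ± 32.4 CPM in KO, 1478 ± 325 CPM in A537T and 1555 ± 214 CPM in WT (SD, n = 3). Their libraries overlapped with each other and with no library of the next group in order, A537T-TRAMP at 10 weeks with 2312 ± 306 CPM. From there up to WT-TRAMP at 10 weeks with 2930 ± 306 CPM, neighbouring groups overlapped throughout. KO-TRAMP at 30 weeks was the highest with 4105 ± 1392 CPM, and its spread was the largest of all groups.

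Levels of miR-96-5p, the middle hairpin, ran from 711 ± 187 CPM in WT at 10 weeks to 1471 ± 62.4 CPM in KO-TRAMP at 30 weeks. The libraries of that top group did not overlap with those of A537T-TRAMP at 30 weeks, next in order with 1202 ± 55.9 CPM. All other neighbours in the order overlapped. Levels of miR-182-5p, the last hairpin and the most abundant guide, ran from 4520 ± 1152 CPM in WT at 10 weeks to 7477 ± 875 CPM in KO-TRAMP at 30 weeks, and no neighbouring groups were separated. The plot of levels by group shows these values for each library.

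To ask whether the cluster changes with the TRAMP transgene, TRAMP libraries were compared with those lacking it at the same age, averaged over the 3 genotypes. At 10 weeks all 3 guides were higher with TRAMP, while 65.4% of the 514 miRNAs tested were called in either direction and 25.5% were called higher. Levels of miR-183-5p rose 1.73-fold, by 0.79 ± 0.13 (SE) on the log2(CPM + 1) scale used for all fold changes here (limma adjusted p = 7.57e-06). Levels of miR-96-5p rose 1.40-fold, by 0.49 ± 0.12 (adjusted p = 0.000924). Levels of miR-182-5p rose 1.22-fold, by 0.29 ± 0.12 (adjusted p = 0.0284). The rise of miR-182-5p was the least secure, since it missed the threshold without any 1 of libraries 1, 4, 28, 30 or 36, at 0.22 to 0.36 over all omissions.

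With library totals, the miR-183-5p libraries of 10 weeks without and with TRAMP did not overlap. Without TRAMP its 9 libraries lay between 1154 and 1804 CPM with a median of 1477, and with TRAMP between 2061 and 3266 CPM with a median of 2652. In WT the libraries held 1311, 1709 and 1645 CPM without TRAMP and 3266, 2855 and 2668 CPM with it, a rise of 0.92 (limma adjusted p = 0.00171; 34% of miRNAs called). In KO they held 1449, 1466 and 1512 CPM without TRAMP and 2783, 2530 and 2352 CPM with it, a rise of 0.79 (adjusted p = 0.00695; 42.8% called). In A537T they held 1804, 1477 and 1154 CPM without TRAMP and 2652, 2222 and 2061 CPM with it, a rise of 0.66 (adjusted p = 0.0229; 35% called). The 3 genotypes thus gave the same direction, with the A537T call lost without library 4 (0.56), 35 (0.67) or 36 (0.49), at adjusted p-values of 0.0988, 0.0503 and 0.133. With totals that leave out 11 skeletal muscle, smooth muscle and fibroblast miRNAs, the sets overlapped, at 2048 to 2649 without and 2540 to 3691 with TRAMP, and 0 of these 3 calls remained (0.41 in WT, 0.35 in KO and 0.25 in A537T, adjusted p = 0.151, 0.175 and 0.365). The A537T call was also lost with totals lacking only skeletal muscle miRNAs (0.54, adjusted p = 0.0717) and without a filter (adjusted p = 0.0567).

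The other guides overlapped more. The 9 libraries without TRAMP held 524 to 1105 CPM of miR-96-5p (median 716) and those with TRAMP 737 to 1232 CPM (median 1060). Within genotypes the difference passed the test in WT, at 0.66 (limma adjusted p = 0.0144), and was 0.44 in KO (adjusted p = 0.0822) and 0.37 in A537T (adjusted p = 0.157). The WT call of miR-96-5p was lost without library 1 (0.57, adjusted p = 0.0716) or library 30 (0.48, adjusted p = 0.096), and with totals lacking skeletal muscle miRNAs (0.34, adjusted p = 0.23) or also smooth muscle and fibroblast miRNAs (0.15, adjusted p = 0.575). For miR-182-5p the 9 libraries without TRAMP held 3480 to 6016 CPM (median 4835) and those with TRAMP 4906 to 6951 CPM (median 5878), and the difference passed in 0 of 3 genotypes by limma (1 at an unadjusted p under 0.05), at 0.47 in WT, 0.26 in KO and 0.16 in A537T. Over both ages, edgeR and DESeq2 each called 6 of the 18 TRAMP values of the guides within genotypes, as many as limma.

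At 30 weeks the TRAMP effect, averaged over the genotypes, passed for 1 of 3 guides, while 45.1% of all miRNAs were called and 28.8% were called higher. Levels of miR-96-5p rose 1.33-fold, by 0.41 ± 0.12 (limma adjusted p = 0.00593). Values for miR-183-5p (0.22 ± 0.13, adjusted p = 0.163) and miR-182-5p (0.11 ± 0.12, adjusted p = 0.479) did not pass, and that of miR-183-5p passed without library 16 (0.32, adjusted p = 0.0259). The 9 libraries of miR-96-5p held 779 to 1115 CPM without TRAMP (median 880) and 1063 to 1528 CPM with it (median 1171).

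By genotype, the calls fell in KO. There, miR-96-5p stood at 827, 845 and 851 CPM without TRAMP and at 1479, 1404 and 1528 CPM with it, a rise of 0.80 (limma adjusted p = 0.00317; 35.8% of miRNAs called), which was lost with median-of-ratios scaling (0.50, adjusted p = 0.0749). In KO, miR-183-5p stood at 2059, 3181 and 2131 CPM without TRAMP and at 2630, 5396 and 4288 CPM with it, a rise of 0.71 (adjusted p = 0.0131). The miR-183-5p libraries overlapped, and this call was lost without library 17 (0.48, adjusted p = 0.131), 18, 22 or 24, as it was with 2 scalings that rest on the bulk of miRNAs, TMM (0.45, adjusted p = 0.164) and the median of ratios (0.41, adjusted p = 0.272). In WT the 3 guides differed by -0.13 to 0.04 (30.2% of miRNAs called) and in A537T by 0.09 to 0.39 (10.9% called), with none past the threshold. The difference between the KO and WT effects was 0.84 for miR-183-5p (adjusted p = 0.0851) and 0.76 for miR-96-5p (adjusted p = 0.0932), so that it was not shown that the genotypes responded differently, while 7.98% of miRNAs were called for that difference.

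Age was compared next, as 30 weeks against 10 weeks. Without TRAMP all 3 guides were higher at 30 weeks in the average over genotypes, against 33.5% of miRNAs called and 12.8% called higher. Levels of miR-183-5p rose 1.66-fold, by 0.73 ± 0.13 (limma adjusted p = 5.83e-05), and the 9 older libraries at 1914 to 3387 CPM (median 2382) did not overlap with the 9 younger at 1154 to 1804 CPM, although with totals lacking muscle and fibroblast miRNAs they did (2643 to 3925 against 2048 to 2649). Levels of miR-182-5p rose 1.34-fold, by 0.43 ± 0.12 (adjusted p = 0.00479), from a median of 4835 to 6913 CPM with overlapping libraries. Levels of miR-96-5p rose 1.28-fold, by 0.35 ± 0.12 (adjusted p = 0.023), a call that was lost without any 1 of libraries 26, 30 or 36, at 0.26 to 0.44 over all omissions.

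Within the genotypes the age rise of miR-183-5p passed in all 3. It was 0.84 in WT (limma adjusted p = 0.0118; 9.53% of miRNAs called), where the older libraries held 3387, 2382 and 2615 CPM. It was 0.71 in KO (adjusted p = 0.0288; 14.8% called) and 0.64 in A537T (adjusted p = 0.049; 15.2% called), where they held 2024, 2997 and 1914 CPM. These single-genotype calls were fragile. The WT call was lost without library 19 (0.69, adjusted p = 0.106) or library 28 (0.72, adjusted p = 0.0621). The KO call was lost without library 23 (0.51, adjusted p = 0.233), 31, 32 or 33. The A537T call sat so close to the threshold that 26 of 36 omissions lost it, the lowest value being 0.44 without library 26 (adjusted p = 0.287). For miR-182-5p the rise passed in WT, from 4093, 5825 and 3642 CPM to 7846, 6934 and 6913 CPM, by 0.70 (adjusted p = 0.021), and was lost without library 19, 28 or 30 (0.56 to 0.65, adjusted p up to 0.135). With totals lacking muscle and fibroblast miRNAs 0 of these 4 calls remained, at 0.48 (WT), 0.45 (KO) and 0.37 (A537T) for miR-183-5p and 0.35 for miR-182-5p in WT (adjusted p = 0.128 to 0.28), and both WT calls were also lost with TMM and median-of-ratios scaling.

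With TRAMP, 0 of 3 guides passed for age in the average over genotypes by limma (2 at an unadjusted p under 0.05), edgeR or DESeq2, while 27.4% of miRNAs were called and 20.2% were called higher. The values were 0.16 ± 0.13 for miR-183-5p (adjusted p = 0.348), 0.28 ± 0.12 for miR-96-5p (adjusted p = 0.0807) and 0.24 ± 0.12 for miR-182-5p (adjusted p = 0.116). In KO alone, where 22.2% of miRNAs were called, miR-183-5p (0.63, adjusted p = 0.0423) and miR-96-5p (0.61, adjusted p = 0.0358) passed. The call of miR-183-5p was lost without any 1 of libraries 7, 8, 9, 17 or 18 and that of miR-96-5p without 7, 9, 16, 17 or 18, with values down to 0.40 for miR-183-5p (without library 17, adjusted p = 0.323) and 0.41 for miR-96-5p (without library 9, adjusted p = 0.218). Both calls were also lost with TMM (0.39 for miR-183-5p and 0.37 for miR-96-5p) and median-of-ratios scaling (0.39 and 0.37). None of the 3 guides passed in WT (7.59% of miRNAs called) or in A537T (5.45% called).

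The TRAMP effect on miR-183-5p was smaller at 30 than at 10 weeks, by -0.57 ± 0.18 on the log2 scale (limma adjusted p = 0.017; 37.2% of miRNAs called for this difference). The corresponding values were -0.08 ± 0.17 for miR-96-5p (adjusted p = 0.75) and -0.18 ± 0.16 for miR-182-5p (adjusted p = 0.386). With library totals, a change of effect with age thus passed for 1 of 3 guides. The call of miR-183-5p held in 9 of 11 alternatives and was lost with the totals that leave out muscle miRNAs. With median-of-ratios scaling miR-182-5p also passed, at -0.51. The change was not particular to miR-183-5p. In the miR-200 family, miR-200c-3p (-0.96), miR-200b-3p (-0.78), miR-429-3p (-0.76) and miR-200a-3p (-0.45) were also called. The remaining member, miR-141-3p, stood at -0.40 (limma adjusted p = 0.0832). Within genotypes the difference passed for miR-183-5p in WT, at -1.05 ± 0.31 (adjusted p = 0.0302; 9.34% called), and was -0.57 in A537T (2.72% called) and -0.08 in KO (31.9% called). In WT with TRAMP, the libraries of 30 weeks held 2519, 2529 and 2533 CPM, below the 3266, 2855 and 2668 CPM of 10 weeks. The WT value missed the threshold without any 1 of libraries 1, 2, 10, 12, 19 or 28, with adjusted p-values over all omissions of 0.0144 to 0.082, and with each of the 4 other denominators (-0.63 to -0.95, adjusted p = 0.145 to 0.232).

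These effects were set against the choice of denominator, because muscle and fibroblast shares differed between the sets of background and age. The 9 libraries of 10 weeks without TRAMP had the largest medians for skeletal muscle and for smooth muscle and fibroblast miRNAs. Single libraries elsewhere also held large shares, such as library 17 with 34.2% smooth muscle and fibroblast miRNAs. At 10 weeks the median of all tested miRNAs was itself lower with TRAMP, at -0.28 with library totals and -0.67 with totals that leave out the 11 skeletal muscle, smooth muscle and fibroblast miRNAs, an alternative chosen after seeing the data. With those reduced totals the rise of miR-183-5p was 0.34 (limma adjusted p = 0.0208), that of miR-96-5p 0.04 (adjusted p = 0.772) and the value of miR-182-5p turned to -0.16 (adjusted p = 0.159). Relative to the median miRNA, which a change of totals moves along with the guides, miR-183-5p stood at 1.07, miR-96-5p at 0.77 and miR-182-5p at 0.58 with library totals. Thus the direction of miR-182-5p, and the calls of miR-96-5p and miR-182-5p, at 10 weeks depended on the denominator.

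The age effect without TRAMP moved in the same way. With the reduced totals it was 0.43 for miR-183-5p (limma adjusted p = 0.00835), 0.13 for miR-182-5p (adjusted p = 0.304) and 0.06 for miR-96-5p (adjusted p = 0.703), where the median miRNA stood at -0.33 in place of -0.07. The difference of the TRAMP effects of miR-183-5p between ages became -0.21 (adjusted p = 0.339). With median-of-ratios scaling, on the other hand, the TRAMP rise of miR-183-5p at 10 weeks was 0.99 (adjusted p = 1.1e-05) and its age rise 0.93 (adjusted p = 6.28e-05). The rises of miR-183-5p at 10 weeks with TRAMP and with age without TRAMP were the ones past the threshold with all 5 denominators. How far the muscle and fibroblast shares enter the CPM values was not tested beyond these denominators.

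**Figure D2:**
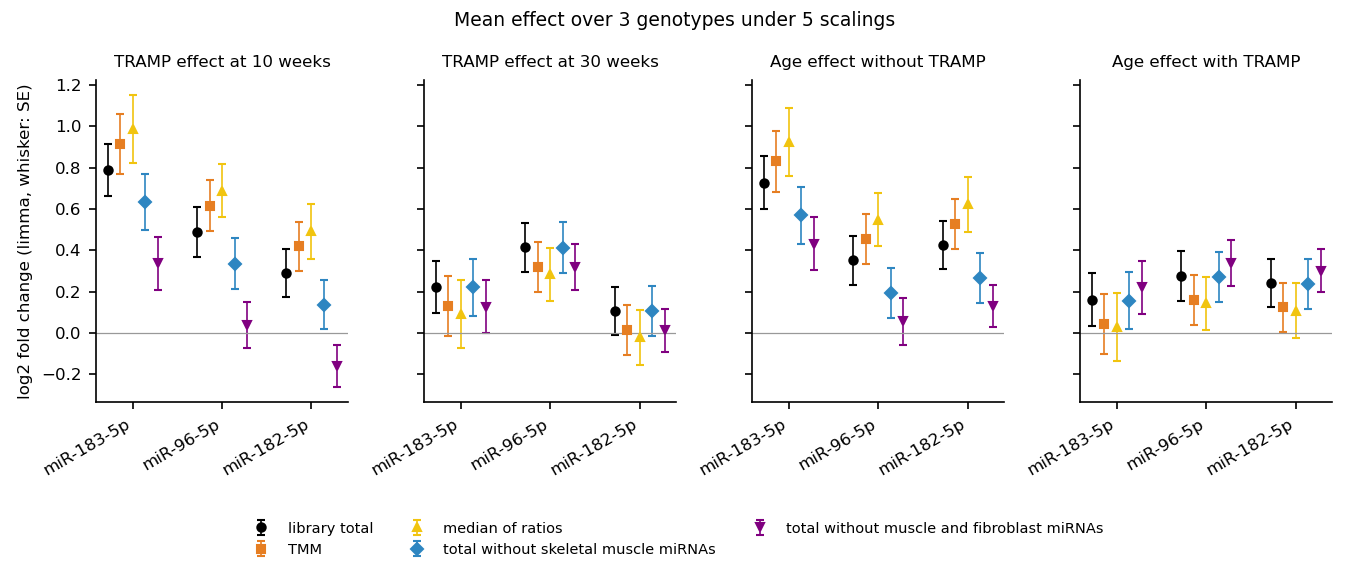
Averaged TRAMP and age effects on the 3 guides (log2 difference, whiskers of 1 SE) with library totals, TMM, median-of-ratios scaling, totals without skeletal muscle miRNAs and totals without muscle and fibroblast miRNAs. The values for miR-183-5p stay above 0 for TRAMP at 10 weeks (0.34 to 0.99) and for age without TRAMP (0.43 to 0.93), whereas that of miR-182-5p for TRAMP at 10 weeks runs from 0.49 down to -0.16.

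Whether loss or exchange of Elac2 goes with a change of these miRNAs was asked by comparing each mutant with WT of the same age and background. KO and A537T share their WT libraries, so the 2 mutants are not independent of each other. By limma with library totals, 0 of 24 values for the 3 guides in the 8 comparisons were called and 2 had an unadjusted p under 0.05. Both edgeR and DESeq2 called 1, and limma called 2 with totals lacking muscle and fibroblast miRNAs. Of all miRNAs, 3.89% were called for KO at 10 weeks, 0.195% for A537T at 10 weeks, 0.584% for KO at 30 weeks, 6.23% for KO-TRAMP at 30 weeks (4.86% as higher) and 0% in the other 4 comparisons. The values for the guides ran from -0.41 to 0.64, positive in 1 of 8 for miR-183-5p, 4 of 8 for miR-96-5p and 3 of 8 for miR-182-5p.

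**Figure D3:**
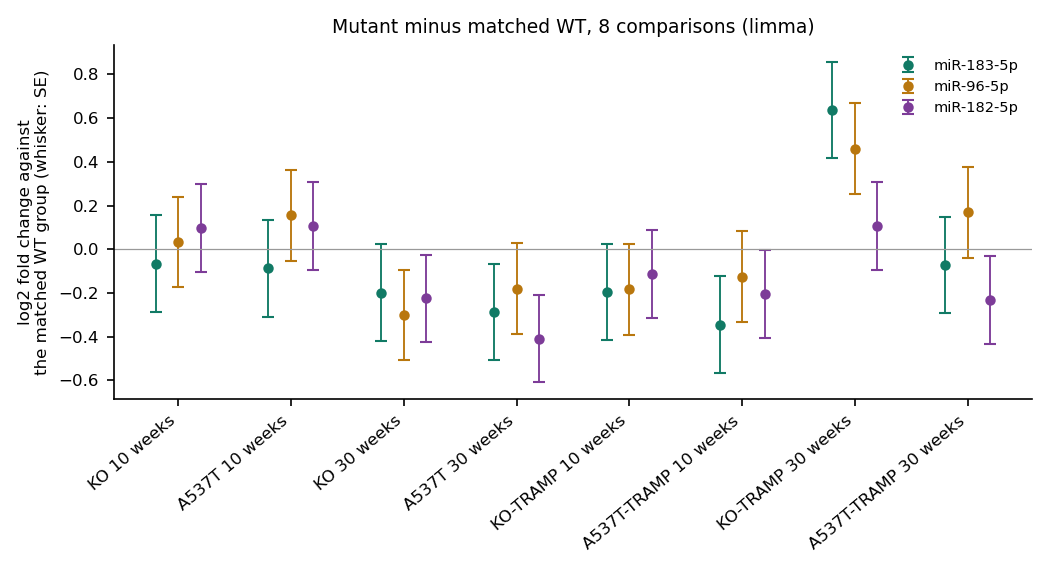
Log2 difference of each mutant from WT of the same age and background for the 3 guides (points, with whiskers of 1 SE), in the 8 comparisons. The largest values are those of miR-183-5p (0.64) and miR-96-5p (0.46) in KO-TRAMP at 30 weeks, and 0 of 24 pass the adjusted threshold in limma with library totals.

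Among these mutant comparisons, the 1 in which tools disagreed was miR-183-5p in KO-TRAMP at 30 weeks. Its libraries held 2630, 5396 and 4288 CPM against 2519, 2529 and 2533 CPM in WT-TRAMP. Each KO-TRAMP library lay above each control with library totals. With library totals the difference was 0.64 ± 0.22 by limma (adjusted p = 0.0752) and 0.70 by edgeR (adjusted p = 0.0445) and DESeq2 (adjusted p = 0.0259). With totals lacking muscle and fibroblast miRNAs limma gave 0.79, which passed, so the call also depended on the denominator. The libraries overlapped with these reduced totals, at 2808, 8321 and 5729 in KO-TRAMP against 3157, 2806 and 2948 in WT-TRAMP. With library totals, library 16 decided the limma call, since the value was 0.93 without that library (limma adjusted p = 0.00266) and 0.41 without library 17 (adjusted p = 0.587). For miR-96-5p the same libraries held 1479, 1404 and 1528 CPM against 1063, 1074 and 1069 CPM, a difference of 0.46 (adjusted p = 0.202). For miR-182-5p they held 6572, 7540 and 8319 CPM against 6711, 7060 and 6986 CPM and overlapped.

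Libraries 17 and 18, the highest for miR-183-5p, also stood apart in miRNAs of neuroendocrine and neural cells. The list of 4 such miRNAs took 0.563% of reads in library 16, 1.87% in library 17 and 1.49% in library 18, against 0.279 to 0.809% in all other libraries. Its member miR-375-3p, typical of endocrine and neuroendocrine cells, stood at 622, 10627 and 8443 CPM in the 3 libraries. Over all 36 libraries miR-375-3p had a mean of 2529 CPM, below the 3769 CPM of miR-7a-5p in the same list. The list did not follow the cluster as a set. Over the 36 libraries, Pearson r with the summed CPM of the 3 guides was 0.17 for miR-375-3p, 0.59 for miR-7a-5p and -0.15 for miR-9-5p. None of the 4 listed miRNAs was at 0 in any library. Other lists also set these libraries apart. Smooth muscle and fibroblast miRNAs took 6.15% of reads in library 16, 34.2% in library 17 and 24.5% in library 18. White blood cell miRNAs ran the other way, at 0.0746, 0.0306 and 0.0452% in the same order. The part of any of these lists in the level of miR-183-5p was not tested.

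Ratios between members of the same library do not depend on the denominator, and were compared over 9 against 9 libraries with an exact permutation test (two-sided, libraries permuted within each genotype, adjusted over 28 tests of 7 ratios in 4 comparisons). Of these 28 tests, 12 passed. The ratio of miR-182-5p to miR-183-5p fell by 0.50 on the log2 scale with TRAMP at 10 weeks (SE 0.07, exact permutation p = 0.00025, the smallest that these permutations can give, adjusted p = 0.007). Without TRAMP it was 2.21 to 3.51 (median 3.33) and with TRAMP 2.06 to 2.38 (median 2.16). The 1 library without TRAMP that reached into the TRAMP range was library 30 (WT), with 2.21. It had the highest skeletal muscle share of its set, 30.7%, and the lowest smooth muscle and fibroblast share, 7.08%. Library 29 (WT), with the next highest skeletal muscle share, had a ratio above the median of 3.33. The part of these shares in the ratio was not tested. With age and no TRAMP the ratio fell by 0.30 (exact permutation p = 0.00675, adjusted p = 0.0226), to 2.19 to 2.91 (median 2.42) at 30 weeks. With TRAMP at 30 weeks it ranged from 1.40 to 2.79 (median 2.50), and neither comparison with that set passed (adjusted p = 0.432 for TRAMP at 30 weeks and 0.529 for age).

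The ratios with miR-96-5p changed differently. The ratio of miR-96-5p to miR-182-5p was higher with TRAMP by 0.20 at 10 weeks (exact permutation p = 0.0125, adjusted p = 0.0292) and by 0.31 at 30 weeks (exact permutation p = 0.005, adjusted p = 0.022). The ratio of miR-96-5p to miR-183-5p fell by 0.38 with age without TRAMP (exact permutation p = 0.00925, adjusted p = 0.0259), and its difference of -0.30 with TRAMP at 10 weeks did not pass (adjusted p = 0.0555). The rise of miR-96-5p against miR-182-5p at 10 weeks was lost without any 1 of libraries 6, 8, 31, 33, 35 or 36 (0.15 to 0.19, adjusted p up to 0.0729), and its fall against miR-183-5p with age without library 19, 21, 28 or 29 (-0.33 to -0.37, adjusted p up to 0.063). The TRAMP difference of miR-96-5p from miR-183-5p passed without library 6, 8, 30 or 36 (-0.34 to -0.37, adjusted p down to 0.0117). Thus miR-183-5p gained on both other guides with age without TRAMP, and miR-182-5p lost against both other guides with TRAMP at 10 weeks.

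**Figure D4:**
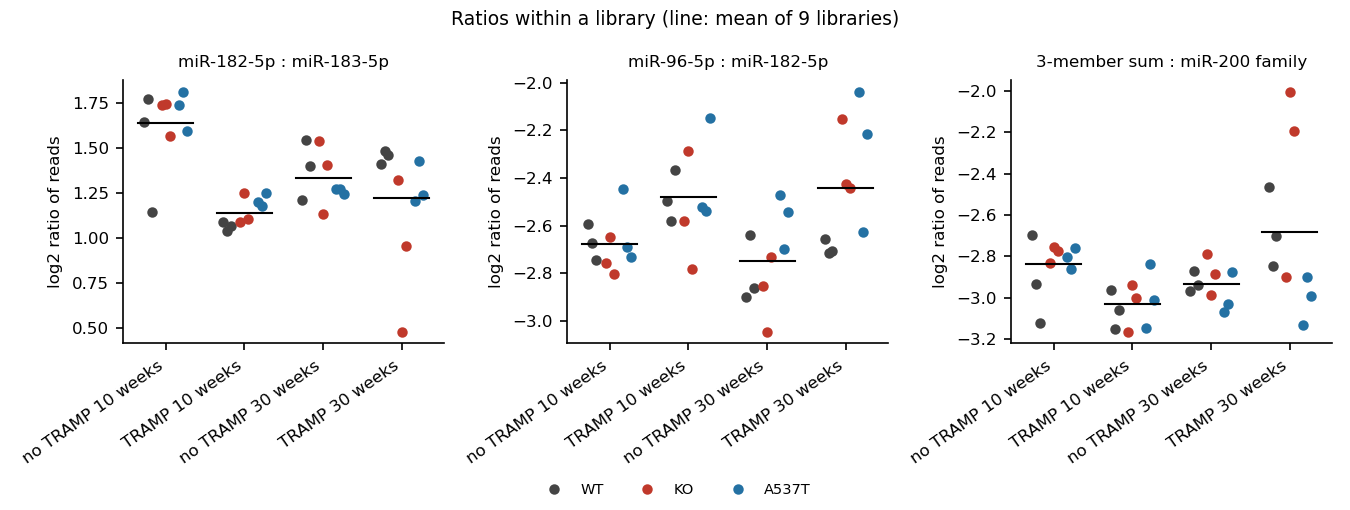
Log2 ratio within each library of miR-182-5p to miR-183-5p, of miR-96-5p to miR-182-5p and of the summed cluster to the summed miR-200 family, in the 4 sets of 9 libraries without and with TRAMP at each age (points are libraries, bars are means). The ratio of miR-182-5p to miR-183-5p has a median of 3.33 on the linear scale at 10 weeks without TRAMP and of 2.16 with TRAMP.

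The passenger strands rose more than their guides in 2 of 3 hairpins. Levels of miR-182-3p rose 2.43-fold with TRAMP at 10 weeks, by 1.28 ± 0.19 (limma adjusted p = 1.5e-06), from a median of 1.65 to 6.18 CPM, and 1.91-fold at 30 weeks, by 0.93 ± 0.19 (adjusted p = 0.000153). Levels of miR-96-3p rose 1.94-fold at 10 weeks, by 0.95 ± 0.19 (adjusted p = 9.55e-05), and 1.76-fold at 30 weeks, by 0.82 ± 0.19 (adjusted p = 0.000889). Values for miR-183-3p were 0.20 ± 0.16 (adjusted p = 0.294) and 0.07 ± 0.16 (adjusted p = 0.731). With age and no TRAMP, miR-182-3p rose by 0.72 (adjusted p = 0.00294) and miR-183-3p by 0.51 (adjusted p = 0.0159), while miR-96-3p stood at 0.42 (adjusted p = 0.0905). With the totals lacking muscle and fibroblast miRNAs the TRAMP rises stood at 1.00 and 0.89 for miR-182-3p and 0.83 and 0.83 for miR-96-3p (adjusted p up to 0.00277), while the age call of miR-183-3p was lost (0.30, adjusted p = 0.152) and its TRAMP value at 10 weeks turned to -0.15. Passenger levels were low enough that the added 1 CPM shrinks these fold changes.

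The guide to passenger ratio, which needs no denominator, was tested with the same exact permutation test and 0.5 reads added to each strand. In the Mir182 hairpin it fell by 1.32 on the log2 scale with TRAMP at 10 weeks (SE 0.21, exact permutation p = 0.00075, adjusted p = 0.007) and by 1.00 at 30 weeks (SE 0.20, exact permutation p = 0.0005, adjusted p = 0.007). The median library held 2531 guide reads per passenger read at 10 weeks without TRAMP and 921 with it, and at 30 weeks 1704 and 794. Library 30 again stood with the TRAMP libraries, at 884. In the Mir96 hairpin the ratio fell by 1.17 at 10 weeks (exact permutation p = 0.00725, adjusted p = 0.0226) and by 0.93 at 30 weeks (exact permutation p = 0.0015, adjusted p = 0.0105). In the Mir183 hairpin it moved the other way at 10 weeks, up by 0.54 (SE 0.17, exact permutation p = 0.0055, adjusted p = 0.022), and did not pass at 30 weeks (0.13, adjusted p = 0.386). With age and no TRAMP, the Mir182 ratio stood at -0.51 (adjusted p = 0.0941) and passed without library 30 (-0.68, adjusted p = 0.00233). With age on TRAMP, the Mir183 ratio stood at -0.31 (adjusted p = 0.0812) and passed without library 4 or 7 (-0.38 and -0.37). The 3 hairpins of 1 transcript thus differed in how guide and passenger shifted with TRAMP.

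**Figure D5:**
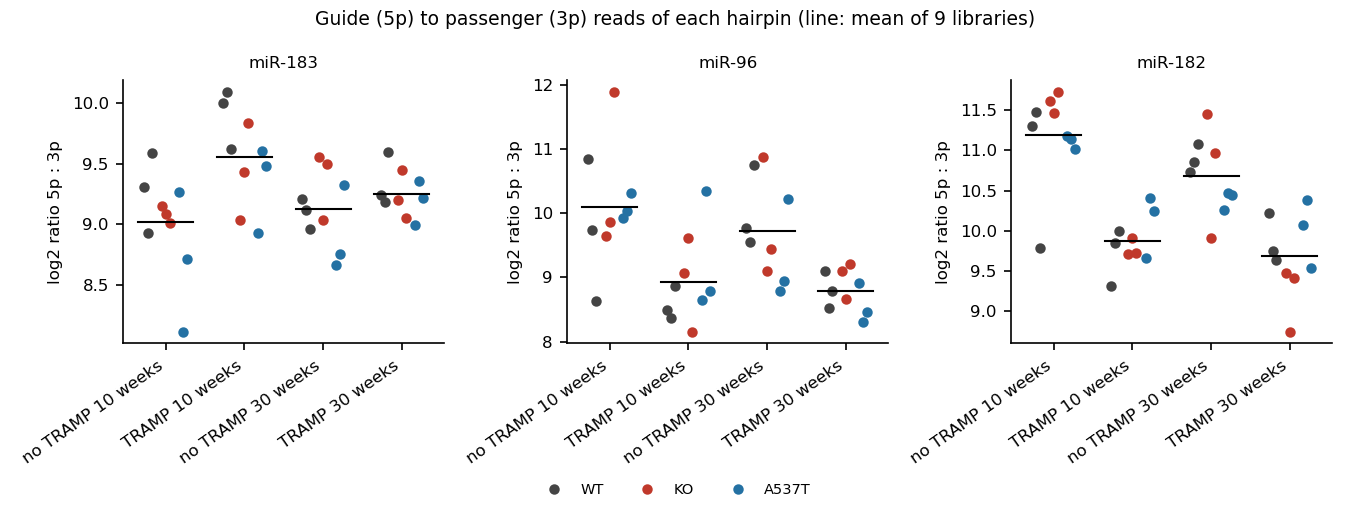
Log2 ratio of the 5p strand to the 3p strand in each library for Mir183, Mir96 and Mir182, in the 4 sets of 9 libraries without and with TRAMP at each age (points are libraries, bars are means). The TRAMP sets lie lower for Mir182, by 1.32 at 10 weeks and 1.00 at 30 weeks, and for Mir96, and higher for Mir183 at 10 weeks, by 0.54.

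The members were compared with each other and with other miRNAs over the 36 libraries, which share preparation, depth and cell composition, so these correlations are descriptions. The guides followed each other with Pearson r of 0.83 for miR-183-5p and miR-182-5p, 0.80 for miR-96-5p and miR-182-5p, and 0.77 for miR-183-5p and miR-96-5p. The passenger miR-182-3p followed miR-183-5p (r = 0.88) and miR-96-3p (r = 0.85) more closely than its own guide miR-182-5p (r = 0.63). Without library 35 these 3 values were 0.87, 0.84 and 0.63.

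Among 159 miRNAs with a mean of at least 100 CPM, those most like the summed cluster were miR-429-3p (Pearson r = 0.84, Spearman rho = 0.80), miR-361-3p (0.79 and 0.84), miR-340-5p (0.76 and 0.71), miR-191-5p (0.73 and 0.72) and miR-21a-5p (0.73 and 0.75). miR-429-3p belongs to the miR-200 family, which marks epithelial cells. The 4 further members of that family followed the cluster with r of 0.70 (miR-200a-3p), 0.68 (miR-200b-3p), 0.63 (miR-141-3p) and 0.45 (miR-200c-3p). Skeletal muscle miRNAs ran against the cluster, with r of -0.57 for miR-1a-3p, -0.63 for miR-133a-3p and -0.46 for miR-206-3p. Members of other lists did so too, such as miR-145a-5p of smooth muscle (-0.49). The red cell miRNA miR-486ab-5p had the lowest r of the 159 (-0.68).

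The miR-200 family was then read beside the cluster. With library totals all 5 of its members were called higher with TRAMP at 10 weeks by limma, where 25.5% of all miRNAs were, at 0.93 for miR-141-3p, 0.91 for miR-200a-3p, 0.76 for miR-429-3p, 0.49 for miR-200b-3p and 0.40 for miR-200c-3p. With the totals lacking muscle and fibroblast miRNAs 3 of 5 were called, at 0.48, 0.46 and 0.31 for the first 3, while miR-200b-3p stood at 0.04 and miR-200c-3p turned to -0.05. For age without TRAMP, all 5 were called higher with library totals (0.42 to 0.68), where 12.8% of all miRNAs were. With the reduced totals, miR-141-3p (0.27) and miR-200a-3p (0.12) lost that call. Ratios to the family need no denominator. With TRAMP at 10 weeks, the ratio of the summed cluster to the summed family fell by 0.19 (SE 0.06, exact permutation p = 0.00475, adjusted p = 0.022). The members of the cluster did not move together. Taken singly in the same comparison, the ratio to the family changed by -0.33 for miR-182-5p (exact permutation p = 0.00075) and -0.14 for miR-96-5p (exact permutation p = 0.201). It changed by 0.16 for miR-183-5p (exact permutation p = 0.0122), and the median of these 3 did not pass (adjusted p = 0.313). The summed ratio thus followed its most abundant guide, miR-182-5p. With age on TRAMP the ratio rose by 0.35 in the average (SE 0.11, exact permutation p = 0.0115, adjusted p = 0.0292), at 0.39 in WT, 0.67 in KO and -0.01 in A537T. The TRAMP difference at 30 weeks, 0.25 (0.25 in WT, 0.52 in KO and -0.02 in A537T), did not pass (exact permutation p = 0.0435, adjusted p = 0.0812), nor did age without TRAMP (-0.10, adjusted p = 0.128). The call for age on TRAMP was lost without any 1 of libraries 4, 7, 8, 9 or 14 (0.32 to 0.36, adjusted p up to 0.0828). The TRAMP difference at 30 weeks passed without library 13, 16 or 27 (0.27 to 0.34), and age without TRAMP passed without library 30 (-0.13, adjusted p = 0.0151).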

How the data were processed

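Small RNA libraries (TruSeq Small RNA kit, Illumina NovaSeq) were made from 3 mice of each group according to the study's methods. For the files, the authors merged read pairs and removed adapters with BBMerge, then mapped and counted miRNAs with mirDeep2 against GRCm38 and miRBase, summing miRNAs of identical sequence. The deposited values are a signal, reads divided by a DESeq2 size factor set within each table of 6 libraries. Reads were recovered from the size of 1 read, and 100% of 94224 values came out whole within 0.01 reads. Each of the 12 control libraries gave the same reads from either of its tables. The deposited comparison tables (shrunken fold changes, their errors and s-values) and lists of merged names were not used.

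Column names give a library number but no group. Columns present in both mutant tables of an age and background were read as WT, and the table named as mutant as A537T. Libraries of no group numbered 0.

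Each library was scaled to a total of 1000000 counts (CPM), which removes the separate scaling of the 8 tables. limma (3.58.1, with a variance trend, R 4.3.3) was fitted to log2(CPM + 1) of all 36 libraries with 12 group means, for 514 miRNAs with a mean of at least 1 CPM, and p-values were adjusted by Benjamini-Hochberg over these at a threshold of 0.05. Count tests on recovered reads used edgeR 4.0.16 (quasi-likelihood) and DESeq2 1.42.0. Ratios within libraries used an exact permutation test over 8000 arrangements. The limit for a count of 0 is 3 reads, which covers counting error only. The named miRNAs are the 3 guides, their 3 passengers, and the 5 miRNAs most like the summed cluster among those of at least 100 CPM. Members, marker lists and tests were chosen with earlier results of these data known. The p-values set differences against the spread between these libraries. On simulated reads, the averaged comparison at 30 weeks recovered 84.8% of 198 miRNAs changed 2-fold (of 508) and 49.7% of 199 changed 1.5-fold, and the comparison within WT at 30 weeks 45.5% and 0.503% of these. Over all simulated miRNAs, a comparison within 1 genotype thus mostly missed changes of 1.5-fold. These shares pool sparse and abundant miRNAs and were not obtained for miRNAs as abundant as the guides. In the data, guide changes of 1.52-fold (miR-96-5p, age in KO-TRAMP) and 1.56-fold (miR-183-5p, age in A537T) were called.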

Additional observations from a re-analysis of the deposited data

Results flagged for a closer look

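The TRAMP effect on miR-183-5p differed between the 2 ages by a test of the difference itself, at -0.57 on the log2 scale averaged over the genotypes (limma adjusted p = 0.017). In WT alone the same difference was -1.05 (limma adjusted p = 0.0302). The averaged difference was also called for miR-200c-3p (-0.96), miR-200b-3p (-0.78), miR-429-3p (-0.76) and miR-200a-3p (-0.45) of the miR-200 family. Here 9 libraries of 10 weeks without TRAMP held 1154 to 1804 CPM and every other library 1914 CPM or more. The averaged difference of miR-183-5p did not pass with totals lacking skeletal muscle miRNAs (-0.41, adjusted p = 0.0852), of which that set held 0.736 to 30.7%, and their part in the difference was not tested further.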

How the results depend on the processing

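No paired analysis was possible, because the labels pair no libraries between groups and the columns carry no replicate number. The averaged calls of miR-183-5p for TRAMP at 10 weeks and for age without TRAMP kept their direction and side of the threshold under every alternative run. Of values within single genotypes, 88 of 1116 changed sign under an alternative and 51 of 3348 when a library was left out, and 0 of these were called in either analysis. Depth limits the passengers most, at 0 to 216 reads per library. The causes of the changes below were not tested. In the averages, the following values crossed the threshold or changed sign (log2, limma).

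Without a filter on low miRNAs, miR-182-5p for TRAMP at 10 weeks (0.29, adjusted p = 0.0646) and miR-96-5p for age without TRAMP (0.35, adjusted p = 0.0583) no longer passed. With median-of-ratios scaling, miR-96-5p (0.28) for TRAMP at 30 weeks no longer passed, miR-182-5p there was -0.022, and the TRAMP by age difference of miR-182-5p passed at -0.51. With totals lacking skeletal muscle miRNAs, values no longer passed for miR-182-5p with TRAMP at 10 weeks (0.14), for miR-96-5p (0.19) and miR-182-5p (0.27) with age without TRAMP, and for the TRAMP by age difference of miR-183-5p (-0.41), and that of miR-96-5p was 0.078. With totals also lacking smooth muscle and fibroblast miRNAs, chosen after seeing the data, TRAMP at 10 weeks gave 0.038 for miR-96-5p and -0.16 for miR-182-5p, and age without TRAMP 0.057 and 0.13. Age with TRAMP then passed for miR-96-5p (0.34) and miR-182-5p (0.30), and the TRAMP by age differences were -0.21 (miR-183-5p), 0.28 (miR-96-5p) and 0.17 (miR-182-5p). Fitting only the groups compared gave 0.35 for miR-96-5p with age without TRAMP, which no longer passed (adjusted p = 0.0632), and 0.28 with age on TRAMP, which passed (adjusted p = 0.0457).

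Leaving out 1 library gave 0.22 to 0.36 for miR-182-5p with TRAMP at 10 weeks (lost without library 1, 4, 28, 30 or 36), 0.15 to 0.32 for miR-183-5p with TRAMP at 30 weeks (gained without 16), 0.26 to 0.44 for miR-96-5p with age without TRAMP (lost without 26, 30 or 36), 0.21 to 0.33 with age on TRAMP (gained without 8 or 36) and -0.16 to 0.018 for its TRAMP by age difference (above 0 without 36).

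Of 24 mutant values, 0 were called by limma, 1 by edgeR, 1 by DESeq2 and 2 with totals lacking muscle and fibroblast miRNAs, and 0 to 1 when a library was left out. Of TRAMP values within genotypes 6 were called, and 2 with those totals. Of age values within genotypes 6 were called by limma and 5 by edgeR. The limma count was 2 without a filter, 3 with TMM, 1 without skeletal muscle miRNAs, 3 with those totals and 1 with only the groups compared. It was 3 to 7 when a library was left out. Of 33 interaction values 1 was called, against 0 without a filter, with TMM, with median-of-ratios scaling or without skeletal muscle miRNAs, 2 with DESeq2, and 0 to 3 when a library was left out. Of 28 ratio tests 12 passed, and 11 to 15 when a library was left out. For age with TRAMP, the ratio of miR-96-5p to miR-96-3p then ran from -0.27 to 0.038 and that of miR-96-5p to miR-182-5p from -0.0072 to 0.091.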
